A study of Homo sapiens with 47 samples.

Results

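The 2 mature strands of the miR-210 hairpin, miR-210-3p and miR-210-5p, and the ratio between them were followed through small RNA sequencing of PC-3 and 22Rv1, a pair of human prostate cancer lines. They were taken by name and are 2 of the 1006 mature microRNA (miRNA) entries of the count table. PC-3 is labelled as a bone metastasis line, and 22Rv1 as a line from a primary tumour that had been passaged as a subline of the CWR22R xenograft. Both were grown in RPMI-1640 with 10% fetal bovine serum. Hypoxia lasted 24 h, in an InVivo2 chamber set to 5, 2, 1, 0.5, 0.2 or 0% O2, and each O2 level had normoxia controls of its own in 95% air. There were 2 libraries per group, apart from 22Rv1 normoxia for the 0.2% level, which had 1. This gave 24 PC-3 and 23 22Rv1 libraries in 24 groups. Whether replicates were grown as separate cultures is not stated in the labels, and p-values here rest on a spread between libraries that may be technical only.

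A miRNA gene is transcribed into a hairpin precursor, which nuclear and cytoplasmic RNases trim to a short duplex. One strand of the duplex is usually loaded into an Argonaute protein and guides it to messenger RNAs through its seed, while the partner strand is mostly degraded, so the ratio of the arms in sequencing reads describes which strand accumulates. miR-210 is the best known miRNA of the hypoxia response: hypoxia-inducible factor (HIF) activates its host transcript in many cell types, miR-210-3p is the guide strand usually studied, and its described targets include the iron-sulphur cluster assembly protein ISCU.

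The arms are shown because all levels below count these molecules. Their sequences are those of RefSeq (GRCh38.p14), 5′ to 3′, with the seed (bases 2 to 8) in capitals.
hsa-miR-210-3p: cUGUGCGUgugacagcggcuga
hsa-miR-210-5p: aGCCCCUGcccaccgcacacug
The hairpin follows, with both arms in capitals.
MIR210: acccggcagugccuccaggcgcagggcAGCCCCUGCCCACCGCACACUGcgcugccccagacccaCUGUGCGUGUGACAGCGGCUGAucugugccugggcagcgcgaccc
Each arm is 22 bases long, and 16 bases lie between them. The 5p arm takes bases 28 to 49 of the 110 and the 3p arm bases 66 to 87. G and C made up 63.6% of miR-210-3p and 72.7% of miR-210-5p. Of the 1006 entries, 868 matched a RefSeq mature sequence by name, and 0 other entries shared the seed of either arm, also when bases 2 to 7 alone were compared. The 2 arms have different seeds and form no seed family with another miRNA of the table.

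On GRCh38, MIR210 (ENSG00000199038.1) lies on chromosome 11 at chr11:568089-568198, minus strand, with miR-210-3p at chr11:568112-568133 and miR-210-5p at chr11:568150-568171. It sits inside the long non-coding RNA gene MIR210HG (ENSG00000247095.2, chr11:565660-568457, minus strand). In GENCODE 29 no exon of the 4 MIR210HG transcripts overlaps the hairpin (0 exons), which lies in an intron between exons ending at 568331 and at 567853. The core of the hypoxia response element bound by HIF is an A or a G followed by CGTG. Because both arms were higher under hypoxia in each line, the RefSeq promoter of MIR210HG is shown, from 250 bases before to 50 after its start (chr11:568408-568707, minus strand), with matches to ACGTG and GCGTG in capitals.
MIR210HG promoter: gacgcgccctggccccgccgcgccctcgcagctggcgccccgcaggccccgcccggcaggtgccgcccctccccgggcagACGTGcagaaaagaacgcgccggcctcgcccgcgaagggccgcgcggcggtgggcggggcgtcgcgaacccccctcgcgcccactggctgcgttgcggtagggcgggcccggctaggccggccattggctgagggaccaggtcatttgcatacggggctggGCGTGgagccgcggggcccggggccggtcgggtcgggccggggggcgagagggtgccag
On both strands searched, the window held ACGTG once, starting at position -170 from the gene's start, and GCGTG once, starting at -9, both on the strand of the gene and not overlapping. Of 35116 RefSeq promoters of this length, 21.4% held ACGTG, 36.5% held GCGTG and 9.51% held both. The match is a description of these letters, and binding was not measured.

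Library totals ran from 960421 to 4327382 counts (median 2649735). Levels are given as CPM (counts of a miRNA relative to the library total), after edgeR's TMM scaling between libraries. In 22Rv1, 4 libraries stood apart on the first principal component (38.8% of the variance), with loadings beyond 0.3 in size: both libraries of replicate 1 at 5% O2, which were also the 2 shallowest (1035470 and 960421 counts), hypoxia replicate 1 at 0.5% and hypoxia replicate 2 at 0.2%. By the same limit 5 PC-3 libraries stood apart on that line's first component (29.7%): the pair of replicate 1 at 5% on 1 side (0.44 and 0.45), and hypoxia replicate 2 at 1% (-0.32) and the pair of replicate 2 at 0.5% (-0.34 and -0.31) on the other. Of 5 smooth muscle or stromal miRNAs, 2 were called higher in hypoxia in PC-3, against 5.83% of all 463 miRNAs tested. These were miR-1-3p and miR-133a-3p, with median levels of only 6.46 and 3.33 CPM. miR-143-3p, with up to 1446 CPM in a library, was not called (log2 change -0.04, edgeR adjusted p = 0.987). Over single libraries the list summed to 21.1 to 1469 CPM in normoxia and 24.6 to 1390 CPM in hypoxia. The part of these stromal miRNAs in the miR-210 results was not tested. The PC-3 effects without the libraries apart are given below. The lines differed in the miRNA markers of androgen receptor state, and the markers of prostate epithelium were split between them. In PC-3 median levels were 8.53 CPM for miR-141-3p, 23.8 for miR-200c-3p, 6345 for miR-200b-3p and 1337 for miR-205-5p. In 22Rv1 they were 10374, 21155, 54.0 and 7.17 CPM. miR-221-3p, miR-222-3p, miR-31-5p and miR-146a-5p, known from androgen receptor-negative prostate lines, summed to 49523 to 60110 CPM in PC-3 and 65.6 to 134 CPM in 22Rv1, and miR-148a-3p and miR-375, known from androgen receptor-expressing lines, to 623 to 1363 and 34308 to 93576 CPM. Of the prostate epithelium, blood, neuron and liver or serum lists, 0 miRNAs were called higher or lower in either line. Tested in each line were only 4 of 4, 2 of 5, 1 of 2 and 1 of 1 of these lists. In 22Rv1 only 2 of the 5 smooth muscle or stromal miRNAs were tested, and 0 were called. In bulk libraries, a change per cell and a change in the share of expressing cells cannot be told apart.

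miR-210-3p, the guide arm, was higher under hypoxia in every pair of both lines. In PC-3 the normoxia libraries ran from 456 CPM (median 674) to 783 CPM and the hypoxia libraries from 881 (median 1082) to 1241 CPM. The means were 667 ± 88.4 (SD, n = 12) and 1075 ± 110 CPM (n = 12), and no hypoxia library fell within the normoxia range. In 22Rv1 the normoxia libraries ran from 800 (median 1192) to 1360 CPM, mean 1153 ± 164 (n = 11), and the hypoxia libraries from 1388 (median 2355) to 2887 CPM, mean 2376 ± 429 (n = 12). Again the conditions did not overlap. Only 3 of 463 tested miRNAs in PC-3 (0.648%) had all hypoxia libraries above all normoxia libraries, the others being miR-125a-3p and miR-181d-5p, and only 2 of 552 in 22Rv1 (0.362%), the other being miR-338-5p. Among all miRNAs of a library ordered by CPM, miR-210-3p moved from a median place of 87 to 76 in PC-3 and from 65 to 44 in 22Rv1.

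Level by level in PC-3, miR-210-3p at 5% O2 stood at 881 and 989 CPM in hypoxia (replicates 1 and 2) and at 610 and 783 CPM in the controls. The 2% level had 1042 and 1094 CPM against 671 and 707 CPM. For 1% the values were 1182 and 964 against 730 and 606 CPM. At these milder levels both hypoxia libraries lay above both controls, with the smallest step at 5%. Taken 1 level at a time, 17.9%, 17.7% and 16.8% of the 463 miRNAs did so at 5, 2 and 1%. For 0.5% they were 1163 and 965 against 669 and 456 CPM. In 0.2% O2 they reached 1241 and 1112 against 678 and 609 CPM. Without O2 they were 1192 and 1070 against 713 and 767 CPM. The lowest of all controls, at 0.5%, accompanied the largest fold of any PC-3 pair, 2.12, and the smallest fold was 1.26, in replicate 2 at 5%.

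For miR-210-3p in 22Rv1 the 5% level gave 1995 and 1388 CPM against 800 and 1039 CPM. The 2% level gave 2730 and 2390 against 1192 and 1177 CPM. At 1% the libraries held 2320 and 2887 against 1237 and 1306 CPM. Hypoxia libraries from 2% downward were all above either library at 5%. The 0.5% level gave 2174 and 2775 against 1360 and 1285 CPM. At 0.2% there were 2614 and 2828 CPM against 1235 CPM in the single control. The 0% level gave 2199 and 2215 against 1006 and 1045 CPM. The fold of a pair ran from 1.34 in replicate 2 to 2.49 in replicate 1, both at 5%, and the control of the latter was the lowest 22Rv1 library.

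miR-210-5p, the partner strand, was about an order of magnitude less abundant and was also higher in every pair. In PC-3 the normoxia libraries held 47.7 (median 75.3) to 96.5 CPM, mean 74.0 ± 13.1 (n = 12), and the hypoxia libraries 91.8 (median 117) to 160 CPM, mean 118 ± 20.9 (n = 12). The ranges overlapped. In 22Rv1 the normoxia libraries held 70.4 (median 81.8) to 135 CPM, mean 89.8 ± 19.1 (n = 11), and the hypoxia libraries 112 (median 251) to 459 CPM, mean 272 ± 91.2 (n = 12). Here too the ranges overlapped. Its median place by CPM moved from 211 to 185.5 in PC-3 and from 183 to 130 in 22Rv1.

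**Figure D1:**
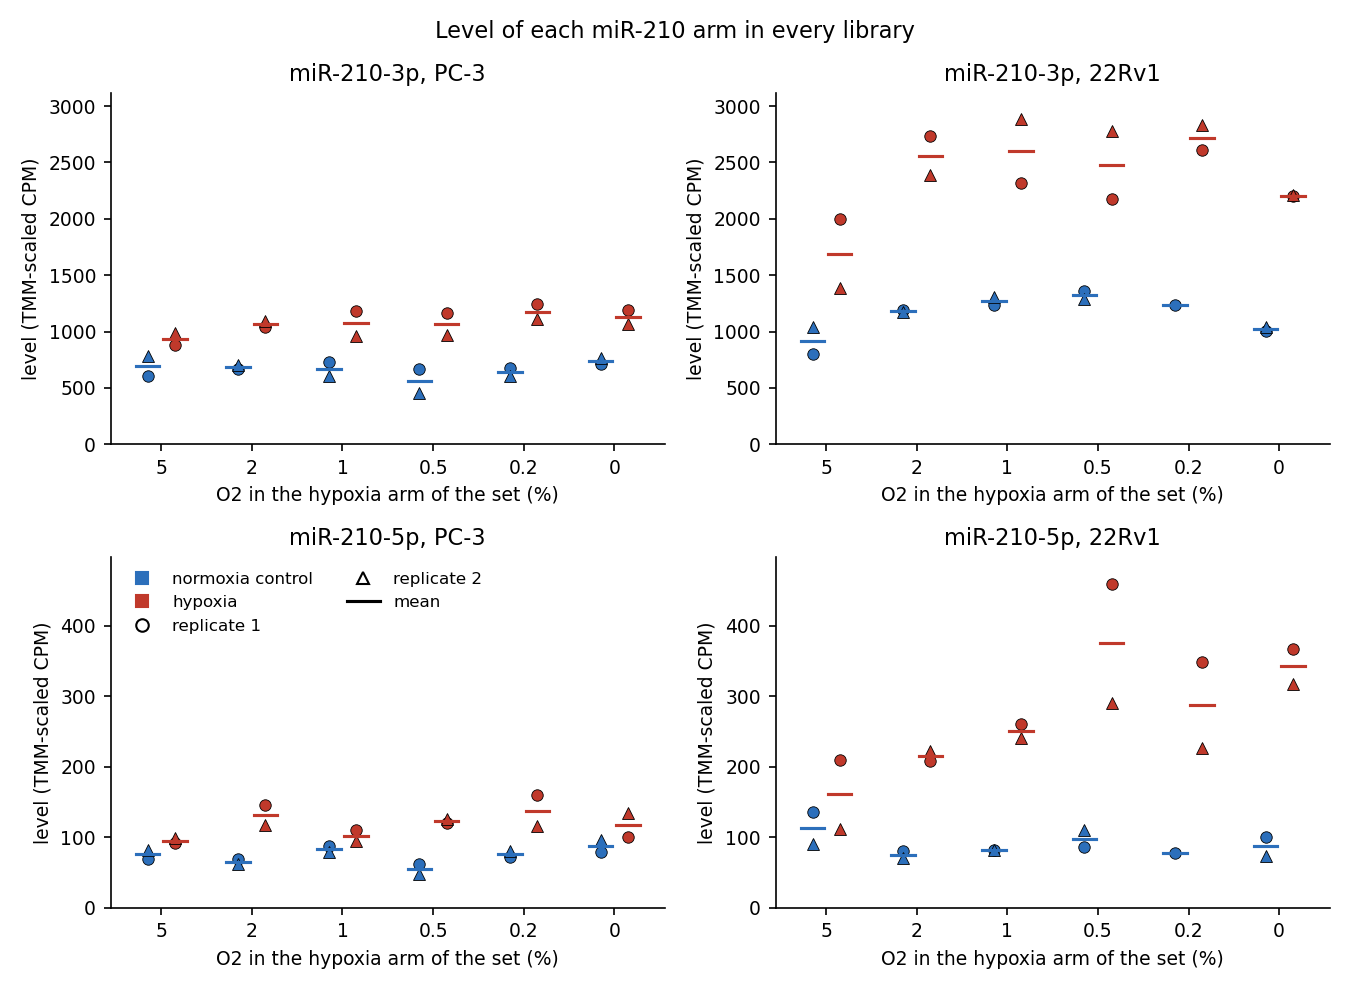
TMM-scaled CPM of miR-210-3p (top) and miR-210-5p (bottom) in each library of PC-3 (left) and 22Rv1 (right), by the O2 level of the hypoxia arm. Points are libraries, bars are means of a group, and all 12 hypoxia libraries of a line lie above all its controls for miR-210-3p, while miR-210-5p in 22Rv1 ranges from 112 to 459 CPM under hypoxia.

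By level, miR-210-5p in PC-3 at 5% had 91.8 and 98.9 CPM under hypoxia and 69.4 and 82.5 CPM in the controls. At 2% it had 146 and 118 against 68.7 and 62.3 CPM. At 1% it had 110 and 95.0 against 87.9 and 79.4 CPM. Among these 3 levels the step was largest at 2%. At 0.5% it had 120 and 125 against 61.9 and 47.7 CPM. At 0.2% it had 160 and 116 against 71.8 and 81.1 CPM. At 0% it had 101 and 135 against 78.8 and 96.5 CPM. Folds of a pair ran from 1.20, in replicate 2 at 1%, to 2.63 in replicate 2 at 0.5%.

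In 22Rv1, miR-210-5p at 5% had 210 and 112 CPM under hypoxia and 135 and 90.2 CPM in the controls, so that a control exceeded a hypoxia library. The 2% level had 208 and 222 against 79.9 and 70.4 CPM. For 1% there were 261 and 241 against 81.6 and 81.8 CPM. From 2% downward the hypoxia libraries of each level exceeded the controls of that level. At a single level, hypoxia libraries all above the controls of that level were common among the 552 miRNAs. The shares were 23.2% at 2%, 24.3% at 1%, 24.5% at 0.5%, 34.1% at 0.2% and 26.8% at 0%. The 0.5% level had 459 and 291 against 86.4 and 110 CPM. At 0.2% the libraries had 348 and 227 CPM against 77.1 CPM in the single control. The 0% level had 368 and 318 against 101 and 73.8 CPM. Folds of a pair ran from 1.24 in replicate 2 at 5% to 5.31 in replicate 1 at 0.5%, a library that stood apart.

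Counting levels, both hypoxia libraries exceeded the controls of the same level at 6 of 6 levels for both arms in PC-3, which held for 1.3% of the 463 miRNAs. In 22Rv1 this held for miR-210-3p at all 6 levels, as for 0.362% of the 552 miRNAs, and for miR-210-5p at the 5 levels below 5% O2, as for 3.08%. The last share leaves out the level where miR-210-5p itself did not separate.

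In the fit over all miRNAs (edgeR quasi-likelihood test, Benjamini-Hochberg adjusted p below 0.05 taken as called), the mean of the 6 level effects in PC-3 was a log2 change of 0.70 ± 0.064 (SE) for miR-210-3p (1.62-fold, adjusted p = 1.05e-07) and 0.68 ± 0.076 for miR-210-5p (adjusted p = 1.61e-06). Both rose, where 5.83% of the 463 miRNAs were called higher. In 22Rv1 miR-210-3p rose by 1.01 ± 0.073 (adjusted p = 2.8e-09) and miR-210-5p by 1.57 ± 0.13 (adjusted p = 3.73e-08), where 7.61% of 552 were called higher. These calls held without any single library and under every scaling, filter and tool tried. Without the libraries apart, the 22Rv1 values were 0.95 and 1.51, and without the 5 PC-3 libraries apart the PC-3 values were 0.69 (adjusted p = 4.81e-07) and 0.66 (1.62e-04). Leaving out the PC-3 pair of replicate 1 at 5% alone gave 0.69 and 0.67.

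At single levels the fits rest on 2 libraries against 2, with SEs of 0.16 for miR-210-3p and 0.18 to 0.19 for miR-210-5p in PC-3. In PC-3, miR-210-3p rose by 0.70 at 1% (adjusted p = 0.0416), 0.91 at 0.5% (0.00192), 0.92 at 0.2% (0.00328) and 0.64 at 0% (0.0259), and had values of 0.43 at 5% and 0.61 at 2% (0.0556), which did not pass. A further fit, the replicate block, gave each same-numbered hypoxia and control pair of a level its own term. With this block those 2 levels passed as well, at 0.44 (adjusted p = 0.0316) and 0.61 (2e-04). miR-210-5p rose by 0.97 at 2% (adjusted p = 0.0151), 1.15 at 0.5% (0.00187) and 0.90 at 0.2% (0.0101). Its values of 0.33 at 5%, 0.30 at 1% and 0.45 at 0% did not pass, the last passing with the block (adjusted p = 0.0447). Called higher were 0.432% of all miRNAs at 2%, 0.216% at 1%, 0.864% at 0.5%, 1.51% at 0.2% and 1.08% at 0%. With the block they were 0.432% at 5%, 3.89% at 2% and 3.24% at 0%. At 1% O2 the single miRNA called higher of the 463 was miR-210-3p.

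These PC-3 level calls leaned on single libraries. The miR-210-3p call at 1% was lost in 11 of 24 omissions (both hypoxia and both control libraries of the 1% and of the 0% level, both controls of 0.2%, or hypoxia replicate 2 of 0.2%), with adjusted p of 0.0529 to 0.556. At 0% it was lost without any of the 4 libraries of that level (0.0661 to 0.247), at 0.2% without hypoxia replicate 1 or either control (0.0538 to 0.147), and at 0.5% without hypoxia replicate 1 (0.107) or control replicate 2 (0.144). The 2% value became a call without either control of 5% or of 0.5%, or hypoxia replicate 2 of 0.2% (0.0316 to 0.0484), with DESeq2 (0.0148), with the authors' scaling (0.037) and with no filter (0.0422). The 1% call was also lost with DESeq2's size factors (0.0517), library size alone (0.0821) or the authors' scaling (0.138), and the 0% call with the last 2 (0.0739 and 0.142). For miR-210-5p the 2% call was lost without hypoxia replicate 1 (0.301) or either control (0.088 and 0.0528), the 0.5% call without control replicate 2 (0.0948), and the 0.2% call without hypoxia replicate 1 (0.196) or either control (0.123 and 0.147) or with the authors' scaling (0.129). Without the 5 PC-3 libraries apart, miR-210-3p was called at 2% (0.61, adjusted p = 0.0262), 1%, 0.2% and 0% but not at 0.5% (0.82, 0.0801), and miR-210-5p at 2% (0.0262) but not at 0.5% (0.98, 0.211) or 0.2% (0.89, 0.0507).

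In 22Rv1, with SEs of 0.17 for miR-210-3p (0.22 at 0.2%) and 0.29 to 0.30 for miR-210-5p (0.38 at 0.2%), miR-210-3p rose by 1.07 at 2% (adjusted p = 0.00165), 1.08 at 1% (0.00146), 0.88 at 0.5% (0.00709), 1.17 at 0.2% (0.0124) and 1.11 at 0% (1.46e-04). The 5% value was 0.78 (adjusted p = 0.09), called with the block (0.0431) or with DESeq2 (0.00262), and 0.37 without the pair of replicate 1. miR-210-5p rose at the same 5 levels, by 1.48 at 2% (adjusted p = 0.0161), 1.67 at 1% (0.00378), 1.93 at 0.5% (0.00111), 1.93 at 0.2% (0.0163) and 1.97 at 0% (1.46e-04), and had a value of 0.42 at 5% (0.985). Of all 552 miRNAs 0.362% were called higher at 2%, 0.725% at 1%, 1.81% at 0.5%, 0.725% at 0.2% and 3.44% at 0%, and 0.181% at 5% with the block, which was miR-210-3p alone. With library size alone as the scaling, 0 of 6 levels were called for miR-210-3p (values of 0.51 to 1.25 at the 5 levels) and 5 of 6 for miR-210-5p. The miR-210-3p call was lost at 2% without control replicate 1 (0.0754), at 1% without either control (0.0605 and 0.0668) and at 0.5% without control replicate 2 (0.131), and gained at 5% without hypoxia or control replicate 2 (0.0465 and 0.0251). The miR-210-5p call was lost at 2% without either control or hypoxia replicate 2 (0.156, 0.344 and 0.101), at 1% without either control or hypoxia replicate 1 (0.0916, 0.0995 and 0.051) and at 0.2% without hypoxia replicate 1 (0.0851).

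**Figure D2:**
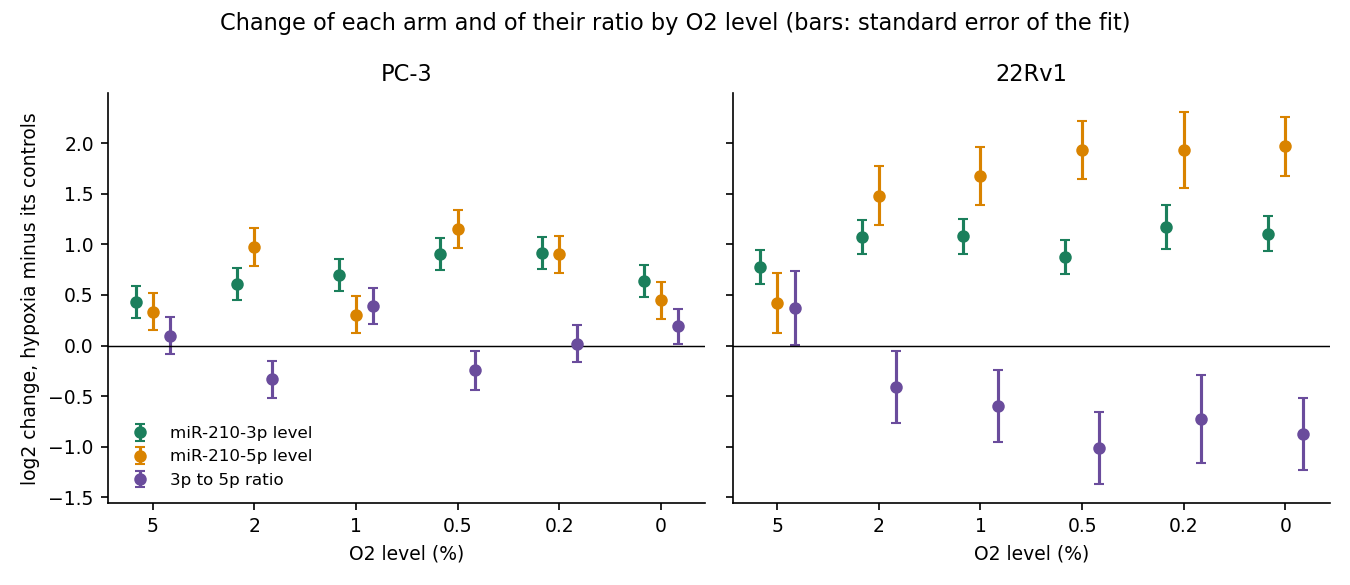
Fitted log2 change (hypoxia minus the controls of the same level) of miR-210-3p, miR-210-5p and their ratio against O2 level in PC-3 (left) and 22Rv1 (right). Points are edgeR estimates and bars their standard errors, and in 22Rv1 miR-210-5p runs from 0.42 at 5% to 1.97 at 0% while miR-210-3p stays between 0.78 and 1.17.

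Whether the response grew as O2 fell was asked with a linear trend over the 6 ordered levels, in log2 per step. For miR-210-3p the trend was 0.06 ± 0.037 in PC-3 (adjusted p = 0.995) and 0.05 ± 0.041 in 22Rv1 (0.856), and for miR-210-5p in PC-3 0.03 ± 0.044 (0.995). For miR-210-5p in 22Rv1 it was 0.27 ± 0.071 (adjusted p = 0.191). With the replicate block this last trend was 0.30 and called (adjusted p = 6.69e-04, where 1.99% of miRNAs were called higher), and its level effects differed (0.0055, where 3.99% were called). It was also called without the 4 libraries apart (0.30, adjusted p = 4.72e-04, with level effects differing at 0.0064), and without hypoxia replicate 1 at 5%, control replicate 2 at 5%, hypoxia replicate 2 at 0.5% or hypoxia replicate 2 at 0.2% alone (0.0301 to 0.0445). Without the block, edgeR called 0 of 5 differences between neighbouring levels for either arm in either line, and DESeq2 likewise. At an unadjusted p below 0.05 there were 3 for miR-210-5p in PC-3, 1 for miR-210-5p in 22Rv1 and 0 for miR-210-3p in either line. The largest of these were 0.84 ± 0.26 for miR-210-5p in PC-3 between 1% and 0.5% (edgeR, unadjusted p = 0.00405, adjusted p = 0.868) and 1.06 ± 0.41 for miR-210-5p in 22Rv1 between 5% and 2% (unadjusted p = 0.0188, adjusted p = 0.995). With 2 libraries in a group, a missed threshold does not show that levels were alike.

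No change of the arm ratio was detected in PC-3. Over the PC-3 libraries miR-210-3p gave 9.14 ± 1.19 counts (SD, n = 12) per miR-210-5p count in normoxia, from 7.51 (median 9.24) to 11.4, and 9.29 ± 1.40 (n = 12) in hypoxia, from 7.14 (median 9.58) to 11.8. The share of miR-210-5p in the sum of both arms was 9.99 ± 1.15% and 9.89 ± 1.38%. Both distributions covered the same range. The fitted log2 change of the ratio was 0.02 ± 0.076 (adjusted p = 0.944, 95% interval -0.13 to 0.17), and an exact two-sided permutation test within levels gave p = 0.836 over 46656 arrangements. Its sign changed when 1 of 6 libraries was left out (-0.028 to 0.068 over all omissions). The ratio was lower in 6 of 12 pairs.

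By level in PC-3 the ratio under hypoxia was 9.60 and 9.995 at 5% O2, against 8.79 and 9.49 in the controls. The 2% level had ratios of 7.14 and 9.29 against 9.76 and 11.4. The 1% level had 10.8 and 10.2 against 8.31 and 7.63. Both pairs were thus higher at 5% and at 1%, and both lower at 2%. The 0.5% level had 9.70 and 7.70 against 10.8 and 9.57. For 0.2% the ratios were 7.77 and 9.57 against 9.44 and 7.51. For 0% they were 11.8 and 7.92 against 9.04 and 7.95. Both pairs were lower at 0.5%, and the 2 pairs went opposite ways at 0.2% and at 0%.

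In 22Rv1 the ratio fell. Normoxia libraries had 5.91 (median 14.9) to 16.7 miR-210-3p counts per miR-210-5p count, mean 13.4 ± 3.32 (n = 11), and hypoxia libraries 4.74 (median 9.52) to 13.1, mean 9.48 ± 2.76 (n = 12). The lowest control, at 5.91, was replicate 1 at 5%, and without that pair the means were 14.2 ± 2.31 (n = 10) and 9.48 ± 2.89 (n = 11). The share of miR-210-5p went from 7.45 ± 2.58% to 10.3 ± 3.19% over all libraries. Counts of miR-210-5p behind these shares were 107 to 424 in normoxia and 193 to 1058 in hypoxia. For the shallowest library the share was 14.5% (95% Wilson interval 12.1 to 17.2%, counting error only), and for hypoxia replicate 1 at 0.5% it was 17.4% (16.4 to 18.5%), the highest of all libraries.

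By level in 22Rv1 the ratio under hypoxia was 9.51 and 12.4 at 5% O2, above the 5.91 and 11.5 of the controls in each pair. At 2% the ratios were 13.1 and 10.8 against 14.9 and 16.7. At 1% they were 8.88 and 11.96 against 15.2 and 16.0. From 2% downward each pair was lower under hypoxia. At 0.5% the ratios were 4.74 and 9.53 against 15.7 and 11.7. At 0.2% they were 7.50 and 12.5 against 16.0 in the single control. At 0% they were 5.98 and 6.96 against 9.96 and 14.1. In all, 9 of 11 pairs were lower, with changes of -1.73 to 0.69 on the log2 scale, and both exceptions were at 5%. At each of the 5 levels below 5% the hypoxia libraries lay under all controls of that level, as for 3.6% of the 139 hairpins. This share leaves out the 5% level, where miR-210 went the other way, and so describes miR-210 without testing it.

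**Figure D3:**
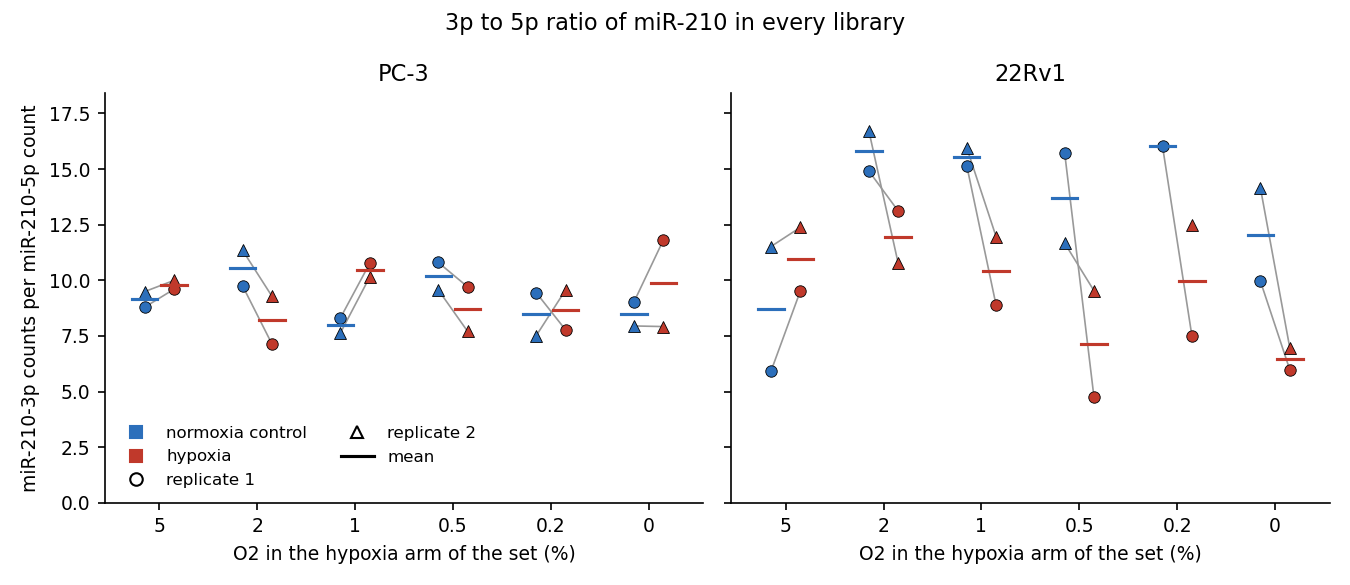
Ratio of miR-210-3p to miR-210-5p counts in each library of PC-3 (left) and 22Rv1 (right), by the O2 level of the hypoxia arm. Points are libraries, bars group means and grey lines join replicates of the same number, and 22Rv1 pairs fall at every level below 5% while 6 of 12 PC-3 pairs fall.

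The fitted mean change of the ratio in 22Rv1 was a log2 value of -0.54 ± 0.15 (adjusted p = 0.0306), a ratio 1.46-fold lower, where 5.04% of 139 hairpins were called lower. The exact two-sided permutation test within levels gave a mean difference of -0.54 and p = 0.0105 over 23328 arrangements. With the replicate block the value was -0.60 (adjusted p = 3.79e-04), and without the 4 libraries apart -0.56 (6.24e-05). In the block, hypoxia replicate 2 at 0.2%, with a ratio of 12.5, had no control to pair with and did not contribute. It was also among the 4 libraries apart, and without it alone the value was -0.60. The call of the main fit was close to its threshold. limma gave -0.54 with an adjusted p of 0.0567, and leaving out 1 library moved the value between -0.46 and -0.63 and the adjusted p between 0.0061 and 0.0766. It stayed below 0.05 only without control replicate 1 at 5% or 0%, control replicate 2 at 0.5%, hypoxia replicate 1 at 2% or 0.2%, or hypoxia replicate 2 at 5%, 1%, 0.5% or 0.2%, and rose to 0.05 or above without any of the other 14 of 23.

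No single level had a called ratio change. In PC-3 the edgeR values were 0.10, -0.33, 0.39, -0.25, 0.02 and 0.19 from 5% to 0% O2 (0 of 6 called, 1 at an unadjusted p below 0.05, and 0 by limma). In 22Rv1 they were 0.37, -0.41, -0.59, -1.01 (adjusted p = 0.154), -0.73 and -0.88 (0.25), again 0 of 6 called, with 2 at an unadjusted p below 0.05 and 0 by limma. With the block the 0.5% level (-1.01, adjusted p = 0.011, where 8.63% of hairpins were called lower) and the 0% level (-0.88, 0.0312, where 5.76% were) passed. The 0.5% value rested on replicate 1. It was -0.51 without hypoxia replicate 1 of that level (adjusted p = 0.774), -0.80 without its control (0.481) and -0.50 without the 4 libraries apart (0.252), and -1.51 and called without hypoxia replicate 2 (0.0387). The 0.2% value was -0.36 without hypoxia replicate 1 (0.739) and -1.09 without replicate 2 (0.525), and it passed at -1.09 without the 4 libraries apart (0.0219), as did the 0% level (-0.87, 0.00156). The 5% value turned to -0.082 without control replicate 1 of that level. The trend of the 22Rv1 ratio was -0.22 ± 0.089 per step (adjusted p = 0.452), or -0.25 with the block (0.0214, where 4.32% were called lower). In PC-3 the effects at 1% and 2% differed by 0.73 (adjusted p = 0.0913), or 0.77 with the block (0.00677, where 4.17% were called higher), and this was also called without hypoxia replicate 2 at 2%. Of the other neighbouring levels 0 were called in either line.

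**Figure D4:**
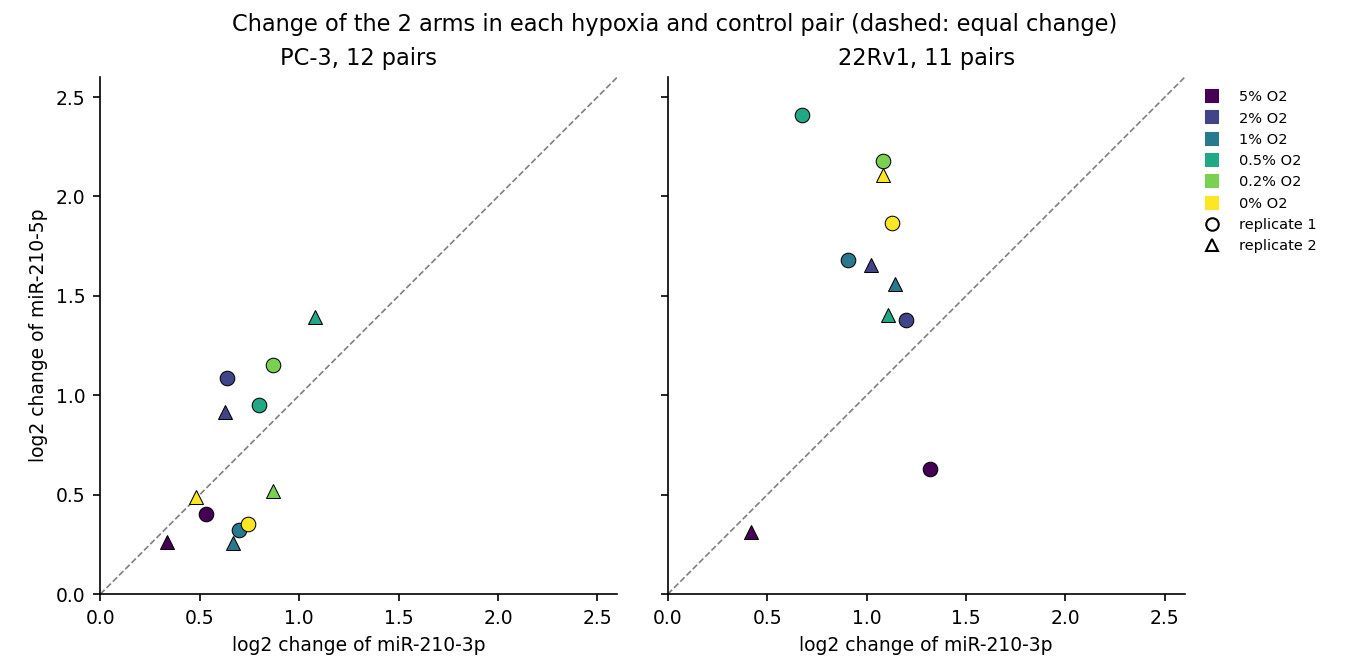
Log2 change of miR-210-5p against that of miR-210-3p in each hypoxia and control pair of PC-3 (left, 12 pairs) and 22Rv1 (right, 11 pairs), coloured by O2 level, with a dashed line of equal change. In 22Rv1 9 of 11 pairs lie above the line and the 2 at 5% O2 below it, while PC-3 pairs fall on both sides.

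Other hairpins show how usual such ratio changes were. Of 120 hairpins tested in PC-3, 19 (15.8%) had a called change of the 3p to 5p ratio, 11 lower and 8 higher, with a median of -0.02 over all. miR-210 was at place 78 of 120 from the most lowered, between miR-589 (0.01) and miR-132 (0.03), and the largest called changes were those of miR-1247 (-1.28) and miR-181b (-0.77). Of 139 hairpins in 22Rv1, 11 were called, 7 lower and 4 higher, with a median of 0.02. miR-210 was at place 9 from the most lowered, between miR-32 (-0.58) and miR-5699 (-0.48, adjusted p = 0.067), and the largest called changes were those of miR-338 (-2.20) and miR-551b (1.84). By the ratio itself, counted from the highest, miR-210 was not extreme. In PC-3 it was at place 29 in normoxia and 31 in hypoxia of 120 hairpins, of which 57 and 56 were 3p-dominant. In 22Rv1 it was at place 23 and 28 of 139, of which 66 were 3p-dominant in each condition.

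**Figure D5:**
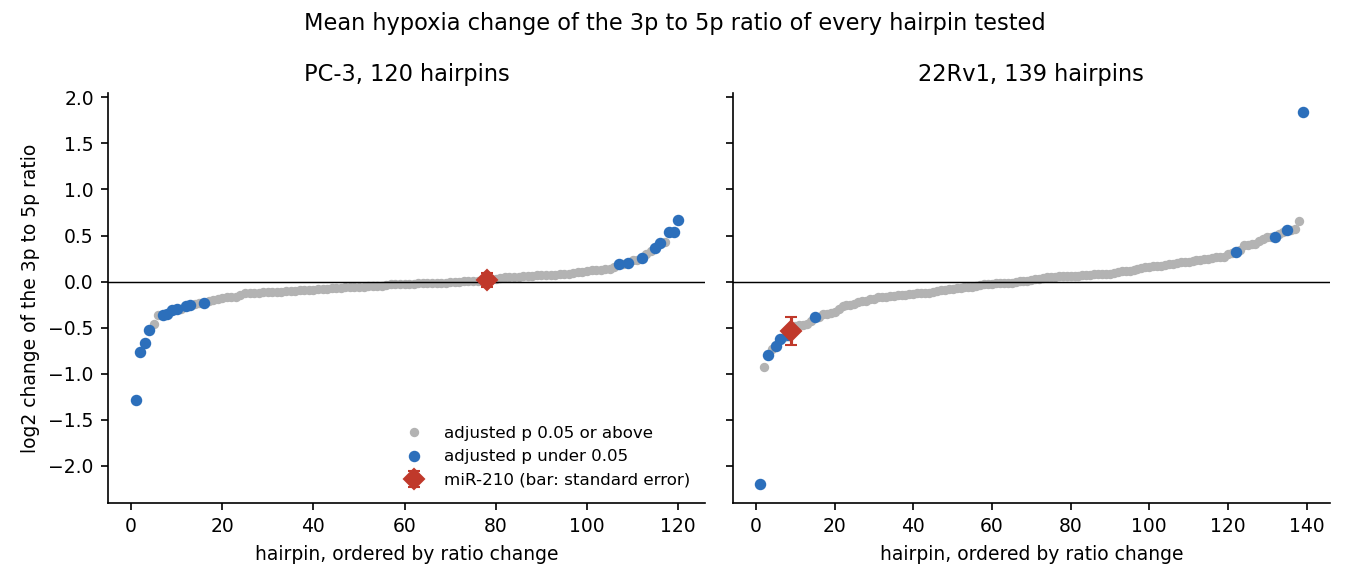
Mean log2 change of the 3p to 5p ratio under hypoxia for every hairpin tested in PC-3 (left, 120) and 22Rv1 (right, 139), ordered from lowered to raised, with called hairpins in blue and miR-210 as a red diamond with its standard error. miR-210 lies at 0.02 in PC-3, place 78, and at -0.54 in 22Rv1, place 9.

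The lines were compared directly in a fit over both. The mean effect of hypoxia on miR-210-5p was smaller in PC-3 than in 22Rv1 by 0.90 ± 0.15 on the log2 scale (PC-3 minus 22Rv1 -0.90, adjusted p = 9.36e-05, where 2.45% of 613 miRNAs were called lower). For miR-210-3p the difference was -0.34 ± 0.11 (adjusted p = 0.0846). It was called with the block (-0.32, 0.00726, where 7.34% were called lower), and without hypoxia replicate 2 at 5% (0.0063), control replicate 2 at 5% (0.046) or hypoxia replicate 2 at 0.2% (0.03) of 22Rv1. The ratio changes differed by 0.56 ± 0.17 (95% interval 0.23 to 0.90), with an adjusted p of 0.109. Called higher were 0.637% of 157 hairpins. This difference was called with the block (0.62, 0.0115, where 3.18% were called higher), without the 22Rv1 libraries apart (0.58, 4.12e-04), without the 22Rv1 pair of replicate 1 at 5% (0.61, 0.0239), and without 22Rv1 control replicate 1 at 5%, hypoxia replicate 2 at 0.5% or hypoxia replicate 2 at 0.2% alone (0.013, 0.0113 and 0.0218).

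In normoxia, miR-210-3p was lower in PC-3 than in 22Rv1 by a log2 value of -0.79 ± 0.077 (adjusted p = 6.39e-12), and miR-210-5p by -0.26 ± 0.11 (0.0251), where 46.3% of all miRNAs were called lower in PC-3 and their median was -0.15. With library size alone as the scaling the median was -0.60, and the arms had -1.26 and -0.71. Under both scalings miR-210-3p lay farther below the median than miR-210-5p. Scaling could not change this order, since it shifts both arms of a library alike. The miR-210-5p call was lost with the authors' scaling (-0.19, adjusted p = 0.0814), without a filter on low counts (-0.14, 0.201), with edgeR's own filter (-0.18, 0.102) without control replicate 1 at 0% of PC-3 (0.0503) and without the 5 PC-3 libraries apart (-0.24, 0.0647). The ratio, which does not depend on scaling, was lower in PC-3 by -0.55 ± 0.12 (adjusted p = 3.22e-04, where 21.7% of hairpins were called lower). Under hypoxia the mean ratios of the lines, 9.29 and 9.48, lay within 1 SD of each other. These means pool all O2 levels, and the lines were not tested against each other under hypoxia.

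The miRNAs whose levels went most closely with miR-210-3p, by Pearson r of log2 CPM over all libraries of a line, are given as a description, since all libraries share the 2 conditions. In PC-3 (24 libraries, 290 miRNAs) they were miR-181d-5p (r = 0.90), miR-30d-5p (0.89), miR-181c-3p (0.89), miR-30b-3p (0.86) and miR-30b-5p (0.85). Their own mean changes were smaller than that of miR-210-3p, from 0.30 for miR-30b-5p to 0.56 for miR-30b-3p, and all 5 were called. In 22Rv1 (23 libraries, 321 miRNAs) they were miR-30d-5p (0.93), miR-23a-3p (0.84), miR-190b (0.81), miR-152-5p (0.80) and miR-27a-5p (0.79), with changes of 0.34 for miR-23a-3p to 1.31 for miR-190b, all called. miR-30d-5p, an abundant miRNA with mean levels of 22699 CPM in PC-3 and 29821 CPM in 22Rv1, was on both lists. The partner arm itself had r = 0.89 with miR-210-3p in PC-3, place 4 of 291, and r = 0.84 in 22Rv1, place 3 of 322. Seen from miR-210-5p in 22Rv1, the closest was miR-190b (r = 0.95), ahead of miR-23a-3p (0.89).

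Within a condition the arms were less closely tied. The permutations shuffled libraries across O2 levels, although each level is a set of its own, and both arms share the scaling of their library. Neither is allowed for in the p-values here. Over the 12 normoxia libraries of PC-3 the log2 levels of the arms had r = 0.728 (permutation p = 0.0119, adjusted over 4 relations 0.0477) and rho = 0.573 (p = 0.055, adjusted 0.22). Without the 2 libraries farthest from the median of miR-210-3p, r was 0.324. Leaving out the most extreme libraries narrows the range and can by itself lower r, so whether the relation rested on them cannot be told. The other 3 relations did not pass. Over the 12 PC-3 hypoxia libraries r was 0.48 (permutation p = 0.114, adjusted 0.136) and rho 0.413 (p = 0.184), and r was 0.02 without the 2 farthest. In the 11 normoxia libraries of 22Rv1 r was -0.574 (permutation p = 0.0671, adjusted 0.134) and rho -0.164 (p = 0.633), with r = 0.291 without the 2 farthest and -0.029 without the pair of replicate 1 at 5%. In its 12 hypoxia libraries r was 0.459 (permutation p = 0.136, adjusted 0.136) and rho 0.0 (p = 1.0), with r = -0.255 without the 2 farthest.

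Other miRNAs named in the literature as hypoxia-linked gave a scale for miR-210. Of a list of 20, without miR-210, 19 were tested in PC-3, of which 3 rose, where 5.83% of all miRNAs tested were called higher, 0 fell and 16 did not pass, with a median log2 change of 0.05 against -0.0044 over all 463 miRNAs. The largest changes were those of miR-30b-5p (0.30, adjusted p = 2.2e-05) and miR-181c-5p (0.23, 0.00132), and miR-192-5p, named after its value was seen, rose by 0.22 (3.93e-04). In 22Rv1 all 20 were tested, of which 2 rose, 0 fell and 18 did not pass, a share near the 7.61% of all miRNAs called higher, with a median of 0.16 against 0.01 over all 552. The largest values, of miR-30b-5p (0.47, adjusted p = 0.119) and miR-155-5p (0.44, 0.067), did not pass. Those that rose, named after their values were seen, were miR-23a-3p (0.34, adjusted p = 7.43e-04) and miR-27a-3p (0.27, 0.0407), which are encoded in 1 cluster. The estimates of these miRNAs were below those of either miR-210 arm in the same line.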

How the data were processed

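The authors' deposited count table (1006 mature miRNA entries, unnormalised counts per library) was the basis of all tests, and the deposited TMM-normalised CPM values, which equal those counts times 1 constant per library, gave the authors' scaling as an alternative. Total RNA had been extracted with miRNeasy and libraries made with TruSeq Small RNA, per the labels' protocols. FastQC and build hg19 are named per the submitters' processing notes, and the aligner is not given in the sources used here. Coordinates above are GRCh38 from the reference annotation, and no position of a read was used. Adapter trimming, read multiplicity and arm assignment were the authors' and could affect low counts.

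In R 4.3.3, edgeR 4.0.16 (TMM, robust quasi-likelihood fit) was run per line over all groups on miRNAs reaching 5 CPM in 2 or more libraries, with Benjamini-Hochberg adjustment over all of them. The 0.2% normoxia group of 22Rv1, with 1 library, was assumed to vary like the other groups. Both lines were joined in 1 fit for line differences. The arm ratio was fitted over all hairpins with both arms in 1 model with a term per library. Alternatives used DESeq2 1.42.0, limma 3.58.1 (pseudocounts 0.5 and 1), other scalings and filters, a replicate block, and omission of each library. Omission of the libraries apart was added after seeing the data. Exact permutations and correlations (100000 resamples) used scipy 1.17.1. Same-numbered hypoxia and control libraries deviated together (r = 0.30 to 0.66 over the PC-3 levels and 0.11 to 0.40 over 5 levels of 22Rv1). The numbers were therefore taken to pair them in the values given per pair and in the replicate block. In the block, 22Rv1 hypoxia replicate 2 at 0.2% had no control to pair with and added nothing to the effects. The main fits and the permutations within levels did not use this pairing. The fits were tested on simulated data. Libraries of a group differed beyond counting noise (chi-square per degree of freedom at least 22.8).

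The members and lists were chosen with earlier results of these data known. Named besides both arms were the 5 miRNAs most alike to miR-210-3p per line (mean of at least 20 CPM), the 2 largest changes of the hypoxia-linked list, and the hairpins next to miR-210 and with the 2 largest called changes.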

Additional observations from a re-analysis of the deposited data

Results flagged for a closer look

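The effect of hypoxia on miR-210-5p differed between the lines by a test of the difference itself. The mean log2 change was 0.68 in PC-3 (higher in 12 of 12 pairs) and 1.57 in 22Rv1 (higher in 11 of 11 pairs), and PC-3 minus 22Rv1 was -0.90 (edgeR, adjusted p = 9.36e-05). Without the 22Rv1 libraries apart it was -0.83 (adjusted p = 8.9e-06), and without the 22Rv1 pair of replicate 1 at 5% O2 it was -0.84 (3.94e-04).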

How the results depend on the processing

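The mean effects of both arms in each line, and the line difference of miR-210-5p, kept their direction and call in all alternatives. The mean ratio change in 22Rv1 was -0.54 and -0.53 by limma with pseudocounts of 0.5 and 1 (adjusted p = 0.0567 and 0.0549) and -0.63 to -0.46 without 1 library. The replicate block, as a pairing of hypoxia and control libraries, turned these into calls: the 22Rv1 miR-210-5p trend (0.30), its differences among levels (adjusted p = 0.0055), the 22Rv1 ratio trend (-0.25), and the line differences of miR-210-3p (-0.32) and of the ratio (0.62). Besides the single and neighbouring levels in the report, the block changed no other call. Its counts of called miRNAs were 109 in PC-3 (51 without), 164 in 22Rv1 (75) and 61 between lines (18), of hairpins 27 in 22Rv1 (11) and 6 between lines (2), of 22Rv1 ratio levels 2 (0) and of PC-3 neighbouring ratio levels 1 (0). Without the 4 22Rv1 libraries apart, the miR-210-5p trend was 0.30, its level differences 0.0064, the line difference of the ratio 0.58, and the counts were 150 and 32 miRNAs, 23 and 6 hairpins and 2 ratio levels. Without the 22Rv1 pair of replicate 1 at 5% they were 0.61 for that line difference, 11 miRNAs and 4 hairpins between lines, and without the PC-3 pair 1 hairpin, as by limma with either pseudocount (1 and 1). Without the 5 PC-3 libraries apart, normoxia miR-210-5p between lines was -0.24 (not called), 7 miRNAs and 1 hairpin were called between lines, and miR-210-5p was called at 1 level in PC-3 (3 with all libraries). With library size alone, 46 miRNAs were called in 22Rv1 and 7 between lines, and miR-210-3p at 2 levels in PC-3 and 0 in 22Rv1. That scaling also moved the split of miRNAs called higher and lower, from 27 and 24 to 22 and 44 in PC-3, from 42 and 33 to 20 and 26 in 22Rv1, and from 3 and 15 to 0 and 7 between lines. The line difference of miR-210-3p was called with no filter (-0.40) and edgeR's filter (-0.36), and that of normoxia miR-210-5p was lost with the authors' scaling (-0.19), no filter (-0.14) and edgeR's filter (-0.18). In PC-3 the uncalled miR-210-5p trend turned to -0.0034 with the authors' scaling, and the uncalled ratio trend to -0.0073 over the 5 levels above 0% O2.

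Without 1 library the ranges were -0.34 to -0.23 for normoxia miR-210-5p between lines, -0.42 to -0.27 and 0.48 to 0.65 for the line differences of miR-210-3p and the ratio, 0.22 to 0.33 for the 22Rv1 miR-210-5p trend, and -0.028 to 0.068 and -0.016 to 0.067 for the PC-3 mean and trend of the ratio. Ratio effects spanned -0.094 to 0.48 at 0% and -0.14 to 0.19 at 0.2% in PC-3 and -0.082 to 0.88 at 5% in 22Rv1. Counts ran from 9 to 37 miRNAs and 1 to 4 hairpins between lines, 5 to 16 hairpins in 22Rv1, 2 to 5 miR-210-3p levels in PC-3, 0 to 1 ratio levels in 22Rv1 and 0 to 1 neighbouring ratio levels in PC-3. The count of 37 was without 22Rv1 hypoxia replicate 2 at 0.2%. miR-210-5p counts of 90 to 1058 limit the precision of the ratio in single libraries, and 2 libraries per group limit the single levels.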
